A study of Caenorhabditis elegans with 15 samples.

Results

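Tetraspanins are small membrane proteins that cross the lipid bilayer repeatedly and gather receptors, proteases and other partners into patches of the cell surface. In *Caenorhabditis elegans* the family is best known for TSP-12, TSP-14 and TSP-21, which promote the BMP-like Sma/Mab pathway that sets body size and patterns the postembryonic mesoderm, and for TSP-15, which the epidermis needs to cross-link the cuticle. The 9 genes described here are tsp-1, tsp-2, tsp-3, tsp-4, tsp-5, tsp-12, tsp-14, tsp-15 and tsp-21, out of 46926 genes in the deposited table and 21 genes named tsp. They were listed by name, with tsp-4 and tsp-5 chosen by their measured averages, which were higher in every mutant than in wild type. Those ratios are therefore given as a description, with no test.

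The libraries were made from polyA RNA of whole animals at the L4 larval stage, the last before adulthood. All carry the strain label N2, the standard laboratory strain. Of the 15 libraries, 6 are of wild-type genotype and 3 come from each of 3 knockouts, labelled u74 KO, u218 KO and, with its gene named, mec-8 (e398) KO, here called by the allele. MEC-8 is an RNA-binding regulator of alternative splicing, and the u74 and u218 labels name no gene. The authors named the whole set of averages as those of mec-8 mutants. The sources used here do not say whether u74 and u218 are alleles of that gene. The values are read counts divided by library size factors, here normalized counts, which the authors averaged over each genotype; they do not separate splice forms. For low averages the whole reads of each library could be recovered, and these libraries are numbered by falling size factor, since they cannot be tied to the labels' replicate numbers.

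Summed over all genes, the averages came to 97187743 normalized counts for wild type, 126747904 for e398, 63068771 for u74 and 68830842 for u218. Recovered size factors, which follow sequencing depth, ran from 0.471 to 0.531 in 3 wild-type libraries, from 1.59 to 1.82 in the other 3, from 0.476 to 0.685 in e398, from 1.46 to 1.95 in u74 and from 0.831 to 1.99 in u218. The wild-type averages thus pool 3 libraries with size factors near those of e398 and 3 nearer to those of u74 and u218. Among the members, only tsp-4 and tsp-5 could be set against each kind of wild-type library. Ratios of the other members to wild type cannot be told apart from a difference between these kinds of library. The mec-8 transcript averaged 1956 (wild type), 1069.7 (e398), 2239 (u74) and 3619.8 (u218), which does not check the labels, since a lesion need not remove its transcript. All 31 marker genes of 8 tissues and stages were detected in every genotype, the lowest at 59.3 (msp-3). The groups differed in reproductive markers. Of 5 oocyte markers 4 were lower at 2-fold or more in e398, 5 higher in u74 and 5 lower in u218, with summed averages of 56831 (wild type), 17080 (e398), 166499 (u74) and 6017 (u218). The 5 sperm markers summed to 25852, 74623, 28915 and 894 in the same order. The 2 adult markers, col-19 and vit-2, summed to 178771, 108025, 472575 and 1189, and the part of these markers in the levels of tsp-4 and tsp-5 was not tested. Library 3 of u218 stood apart, being at least 4-fold from both other u218 libraries for 35.3% of 5938 genes. These are genes of low average, with u218 reads recovered and a mean of 5 or more. Its size factor was 0.831, where libraries 1 and 2 had 1.99 and 1.79. No other library was measured in this way.

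tsp-4 (WBGene00006630) and tsp-5 (WBGene00006631) were nearly silent in wild-type animals and higher, though still low for the family, in every mutant. By average per kilobase of exon among the 21 tsp genes, tsp-4 ranked 16 in each mutant. By the same measure tsp-5 ranked 18 in e398, 18 in u74 and 20 in u218. For tsp-4, the 6 wild-type libraries held 0, 0.572, 12.6, 1.88, 4.09 and 16.99 normalized counts, from 32 reads in all. The 3 e398 libraries held 81.8, 174 and 75.7, the 3 u74 libraries 85.7, 56.2 and 39.1, and the 3 u218 libraries 58.4, 52.9 and 87.9. Every mutant library thus lay above every wild-type library, and the ranges of the mutants overlapped one another. On the log2((average + 1)/(average + 1)) scale, the distance of tsp-4 from wild type was 3.99 for e398, 3.13 for u74 and 3.26 for u218, or 3.01 without u218 library 3.

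tsp-5 showed the same order at a lower level. Its wild-type libraries held 0, 0.572, 4.41, 1.88, 2.04 and 2.12 normalized counts, from 11 reads in all. The e398 libraries held 52.6, 62.4 and 90.4, the u74 libraries 28.2, 33.5 and 27.4, and the u218 libraries 27.2, 31.8 and 42.1. Again no mutant library overlapped wild type, and here every e398 library was also above every u74 and u218 library. The distances of tsp-5 from wild type on the log2 scale were 4.61 in e398, 3.44 in u74 and 3.61 in u218, or 3.42 without u218 library 3.

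**Figure D1:**
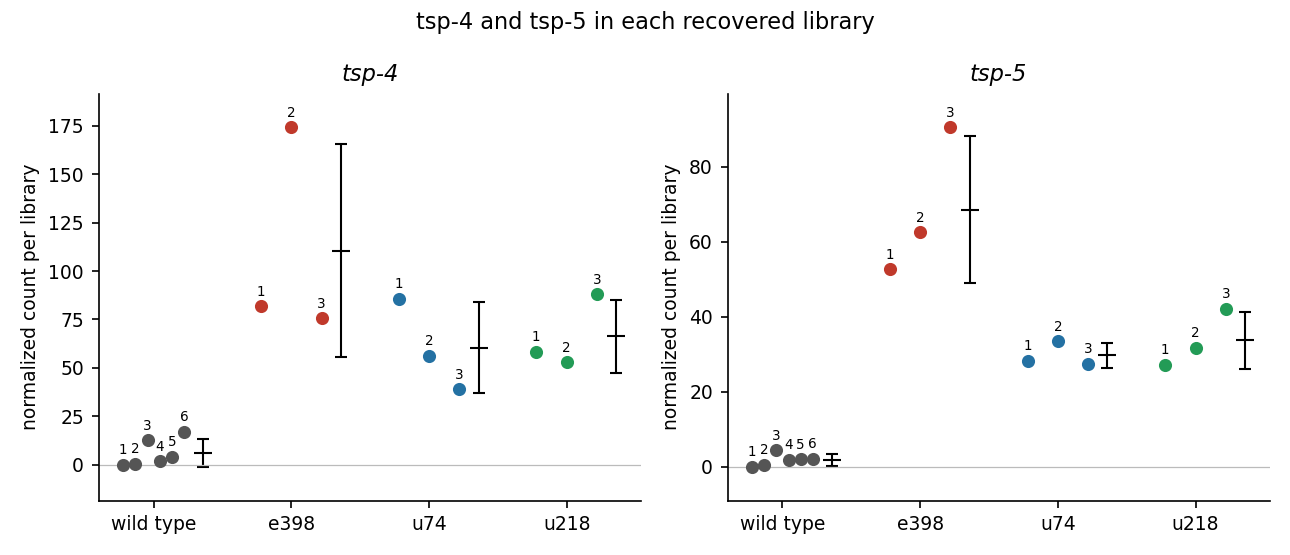
Normalized counts of tsp-4 (left) and tsp-5 (right) in each recovered library of the 4 genotypes; the numbers beside the points are library numbers, and the bar to the right of each group is its mean with 1 SD. Wild-type libraries reach at most 16.99 for tsp-4 and 4.41 for tsp-5, below the lowest mutant libraries at 39.1 and 27.2.

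The wild-type signal of both genes was uneven. Library 3, one of the deeply sequenced, carried 20 of the 32 tsp-4 reads and 7 of the 11 tsp-5 reads, while library 1, the deepest, carried 0 of either, which allows up to 1.65 normalized counts by counting error alone. In the 3 wild-type libraries with size factors from 0.471 to 0.531, near those of e398, tsp-4 averaged 7.65 ± 8.16 (SD, n = 3) and tsp-5 2.02 ± 0.123. In the 3 with size factors of 1.59 or more, nearer to those of u74 and u218, the means were 4.39 ± 7.11 and 1.66 ± 2.40. Both sets lay below every mutant library. In whole animals, fewer cells of a type and less RNA per cell cannot be told apart, and this holds for all levels given here.

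The pair share their gene structure. tsp-4 lies on chromosome IV from 12519119 to 12520250 and tsp-5 on chromosome IV from 13590607 to 13591745 in the WBcel235 annotation, both on the minus strand and 1070356 bases apart. Each has 1 annotated transcript with 5 coding exons of 66, 114, 183, 99 and 261 bases, which encode 241 residues. These are the only genes of the annotation with that series of lengths, and the only identical pair among 210 pairs of tsp genes. For comparison, 4.98% of 2930 protein-coding genes with 5 coding exons share all their lengths with another gene. The annotated exons sum to 797 bases in tsp-4 and 726 in tsp-5, so that the tsp-5 model holds almost no untranslated sequence in which reads could be counted.

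**Figure D2:**
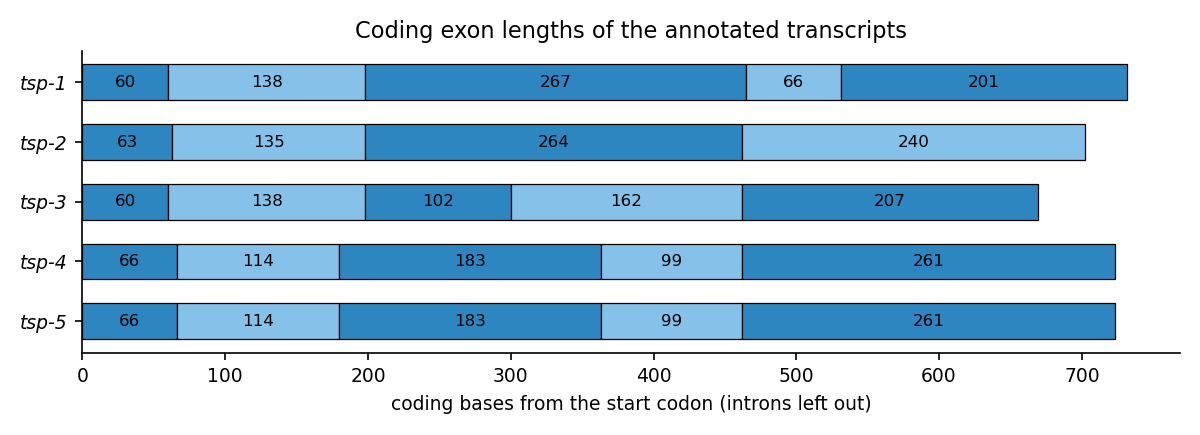
Lengths of the coding exons, in bases, of the single annotated transcript of tsp-1 to tsp-5, drawn to scale from the start codon with introns left out; shading alternates between neighbouring exons. The bars of tsp-4 and tsp-5 are the same in every exon, 66, 114, 183, 99 and 261 bases, while tsp-1, tsp-2 and tsp-3 differ from them and from one another.

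Sequences of the 2 genes were not compared here, and reads that match both copies may have been dropped or placed on either. The level of each gene is uncertain to that extent, and so is their sum where reads were dropped. The summed normalized counts of tsp-4 and tsp-5 were 7.86 ± 8.21 (SD, n = 6) for wild type, 179 ± 52.3 (n = 3) for e398, 90.1 ± 23.7 for u74 and 100.1 ± 25.9 for u218. The highest wild-type sum was 19.1 and the lowest mutant sum 66.5. Of the reads of both, the share of tsp-4 in single mutant libraries ran from 45.6% in e398 library 3 (exact 95% interval 34.3 to 57.2%) to 75.2% in u74 library 1 (69.0 to 80.8%); the intervals cover counting error only. Summed over libraries, the tsp-4 share was 74.4% in wild type (58.8 to 86.5%, from 43 reads in all libraries), 62.9% in e398, 67.9% in u74 and 66.0% in u218, with overlapping intervals.

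Most genes nearest to tsp-4 and tsp-5 had few reads, as did most genes deposited. Of 46926 genes, coding or not, 17770 besides tsp-4 averaged at least 20 normalized counts in any genotype. Of the 3 nearest protein-coding genes on each side of either, 12 in all, 6 were sru chemoreceptor genes, 8 stayed under 20 normalized counts in every genotype and 0 were 2-fold higher in all mutants, beside 0.167% of all genes. At that share 0 of 12 says nothing particular of these genes. The closest, sru-9, lies 270 bases from tsp-5 and averaged 1.96 (wild type), 8.22 (e398), 3.79 (u74) and 0.168 (u218). Beside tsp-4, sru-13 at 989 bases averaged at most 3.54. The abundant neighbour F53B2.8, beside tsp-4, averaged 4174 (wild type), 7163 (e398), 1565 (u74) and 2715 (u218). Y45F10B.3, beside tsp-5, averaged 334, 139, 473 and 40.4 in the same order.

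The genes with the pattern most like tsp-4 were led by tsp-5. Likeness was measured as the distance between the 3 log2 ratios to wild type, over 17770 other genes with an average of at least 20 in any genotype. For tsp-4 the nearest were tsp-5 (0.78), T05B4.8 (1.11), the insulin-like peptide gene ins-20 (1.42), spig-6 (1.496) and the C-type lectin gene clec-174 (1.73). For tsp-5 they were tsp-4, ins-20 (1.07), spig-4 (1.78), T05B4.8 (1.85) and the secreted-protein gene scl-24 (1.85). Over the 15 recovered libraries, Pearson's r of log2(normalized count + 1) between tsp-4 and tsp-5 was 0.95. For each of the pair it was the highest among 12763 genes with reads resolved in all 15 libraries. Such genes average no more than about 9.75 in wild type, so genes more abundant there were not compared. Most of that likeness is the step from wild type to mutants that chose the pair, since r was 0.58 over the 9 mutant libraries. The next by r were fip-1 (0.86 with tsp-4, 0.87 with tsp-5), F16G10.11, Y40B10B.1 and F16G10.13 for tsp-4 (0.83 to 0.81), and T27E7.9, T28A11.20 and C55A1.7 for tsp-5 (0.88 to 0.86). These correlations share libraries and depth and are a description.

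Set per kilobase of annotated exon, wild-type levels placed tsp-5 (2.53 normalized counts per kb) and tsp-4 (7.56) below the other 19 tsp genes. Among the listed genes tsp-14 led in wild type at 2640 per kb, followed by tsp-12 (1565), tsp-15 (436), tsp-21 (420), tsp-2 (279), tsp-1 (194) and tsp-3 (52.2). In e398 tsp-4 stood at 139 per kb and tsp-5 at 94.3, above tsp-3 at 11.9. In u74 tsp-4 (75.7) and tsp-5 (40.9) stood above tsp-1 (31.9) and tsp-2 (35.2). In u218 tsp-4 (83.3) stood above tsp-1 (64.2) and tsp-3 (58.0) but below tsp-2 (95.1). There tsp-5 (46.4) stayed the lowest of the 9. The order of the low members thus differed between the averages. For members other than tsp-4 and tsp-5, genotype and kind of wild-type library cannot be told apart. The 2 highest places among the 9 went to tsp-14 and tsp-12 except in e398, where tsp-2 (720.4) stood above tsp-12 (593). These averages carry no replicate error, so neighbours in this order are not shown to differ.

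Across the 3 comparisons with wild type, no listed member apart from tsp-4 and tsp-5 was higher in every mutant. All 9 reached an average of 20 normalized counts in at least 1 of the 2 columns of each comparison. At 2-fold or more, 4 of 9 were higher in e398 and 3 lower, where 11.4% of all 17398 genes considered were higher and 19.9% lower. In u74 2 were higher and 2 lower, beside 6.47% and 29.0% of all genes. In u218 2 were higher and 2 lower, beside 10.4% and 35.8%. Both higher members in u74 and u218 were tsp-4 and tsp-5. These counts include the pair chosen for being higher. Of the other 7, 2 were higher and 3 lower in e398, 0 and 2 in u74, and 0 and 2 in u218, with median log2 ratios of 0.10, -0.72 and -0.09, where all genes had -0.05, -0.07 and -0.26. At 2-fold in all 3 mutants, 0.167% of 16782 genes were higher and 1.39% lower. The smallest of the 3 ratios was 3.13 for tsp-4 and 3.44 for tsp-5, and the nearest tsp gene outside was tsp-17 at -0.14. The comparisons share the wild-type column. After TMM scaling, which centres the columns on a trimmed mean of their ratios, tsp-3 (1.17) and tsp-12 (1.19) also passed 2-fold in u74 and tsp-21 (1.27) in u218; tsp-21 was at 1.09 after recentring on the median ratio.

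**Figure D3:**
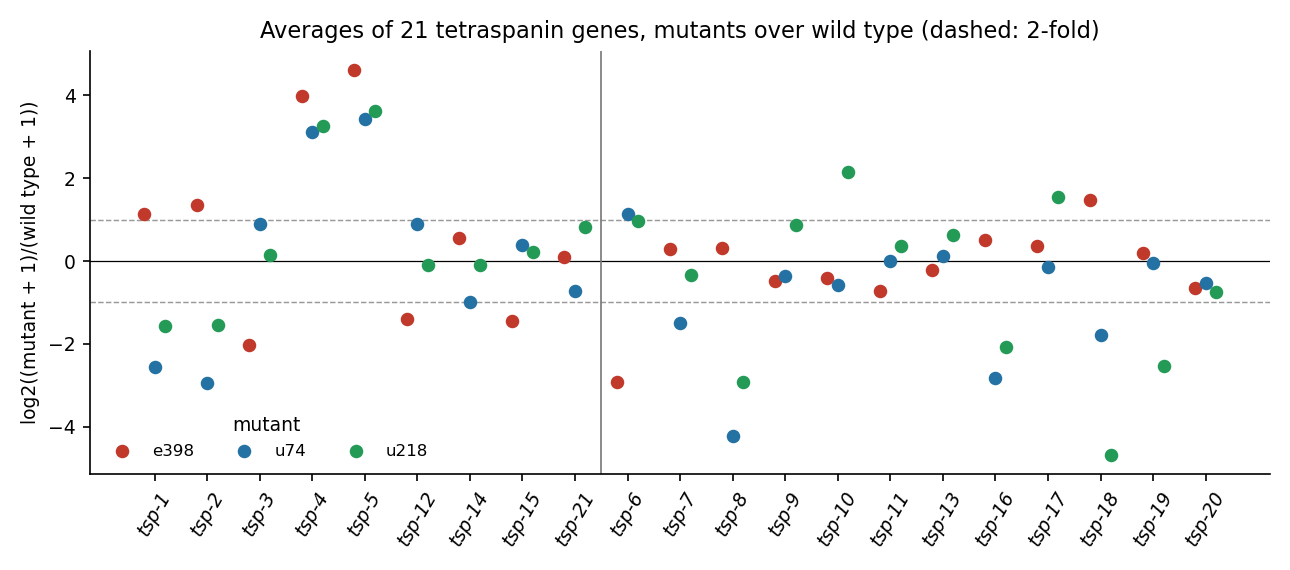
Log2((mutant average + 1)/(wild-type average + 1)) of the 9 listed tetraspanin genes (left of the vertical line) and the other 12 tsp genes (right) in e398, u74 and u218; dashed lines mark 2-fold, and averages carry no error bars. tsp-4 and tsp-5 lie between 3.13 and 4.61 in all mutants, and no other gene has all 3 points above 0.

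tsp-1 and tsp-2 are neighbours on chromosome III (8238001 to 8239423 and 8236928 to 8237935, WBcel235), both on the minus strand with 65 bases between them, and their transcripts moved alike. tsp-1 averaged 175 (wild type), 384 (e398), 28.7 (u74) and 57.7 (u218). tsp-2 averaged 230, 593, 29.0 and 78.3 in the same order. Both were thus higher in e398 (log2 ratios 1.13 and 1.36) and lower in u74 (-2.56 and -2.94) and u218 (-1.58 and -1.54). Without e398 library 3 the e398 ratios were 0.90 for tsp-1 and 0.85 for tsp-2, short of 2-fold. Summed body wall muscle markers, 4 genes, had the same order against wild type, at 1395400 (wild type), 2071400 (e398), 609480 (u74) and 653459 (u218), with 1 of 4 lower at 2-fold in each of u74 and u218 and 0 higher in e398. The sums rest on unc-54 and unc-15; myo-3 was at 0.08 in e398, and hlh-1 at 0.95 in u218, against that order. Their part in the levels of tsp-1 and tsp-2 was not tested.

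Per library, tsp-1 held 279, 376 and 498 normalized counts in e398, 33.9, 14.5 and 37.7 in u74, and 59.9, 30.1 and 83.1 in u218. tsp-2 held 464, 368 and 946 in e398, 34.9, 25.3 and 26.7 in u74, and 60.4, 55.2 and 119.2 in u218. For both genes every e398 library was above every library of the other mutants. For tsp-2 the u74 and u218 libraries did not overlap either, whereas for tsp-1 they did. Wild-type reads of these genes could not be recovered per library.

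tsp-3 (chromosome III, 13212666 to 13214463, plus strand) went the other way. It averaged 42.8 (wild type), 9.74 (e398), 80.1 (u74) and 47.6 (u218), log2 ratios to wild type of -2.03, 0.89 and 0.15. Its e398 libraries held 4.38, 16.4 and 8.41 normalized counts, its u74 libraries 81.6, 75.8 and 83.0, and its u218 libraries 58.9, 78.0 and 6.02. The u74 libraries lay close together, while u218 library 3, the one that stood apart, was at the level of e398. Without it the u218 mean was 68.4 and the log2 ratio to wild type 0.66, whereas the ratio was -0.03 without library 1 and -0.39 without library 2, so its direction was not settled.

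**Figure D4:**
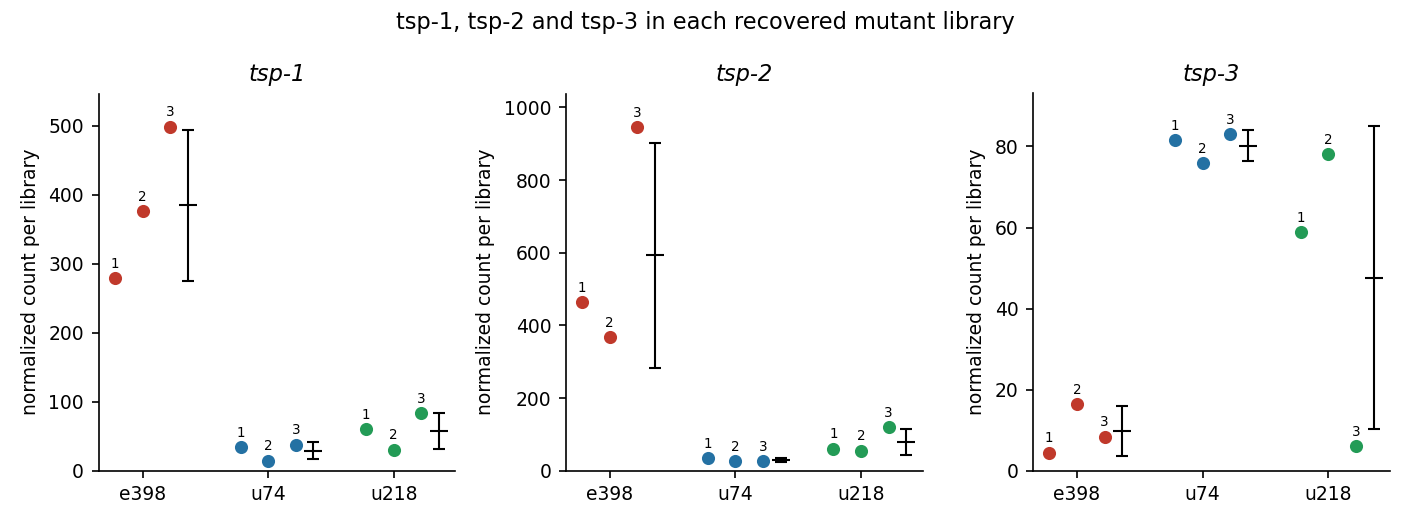
Normalized counts of tsp-1, tsp-2 and tsp-3 in each recovered library of the 3 mutants, with library numbers beside the points and the mean with 1 SD at the right of each group. For tsp-1 and tsp-2 the e398 libraries are the highest (279 to 498 and 368 to 946), and for tsp-3 they are low (4.38 to 16.4) with u218 library 3 (6.02) among them.

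The tetraspanins of the Sma/Mab pathway had ratios of different sign. tsp-12, which also aids Notch signalling, averaged 1946 (wild type), 737 (e398), 3638 (u74) and 1830.2 (u218). The log2 ratios of tsp-12 were -1.40, 0.90 and -0.09. Its paralog tsp-14, which acts redundantly with it, averaged 5338, 7788, 2682 and 5014, with ratios of 0.54, -0.99 and -0.09, none reaching 2-fold. tsp-21 averaged 486, 522, 295 and 864, with ratios of 0.10, -0.72 and 0.83. Within each of e398 and u74, tsp-12 and tsp-14 thus stood on opposite sides of the wild-type average. That average pools libraries with size factors near those of e398 and others nearer to those of u74. Wild-type reads of these genes could not be recovered per library, so genotype and kind of library cannot be told apart here. The exons of tsp-14 overlap those of ntc-1, and those of tsp-21 overlap C17G1.9 and C17G1.11. Reads of overlapping genes cannot be separated, since strandedness is not given in the sources used here.

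tsp-15, which acts in the epidermis with the dual oxidase BLI-3 and its maturation factor DOXA-1, averaged 490.2 (wild type), 179 (e398), 642 (u74) and 571 (u218). Its log2 ratios were -1.45, 0.39 and 0.22, and its exons overlap madd-4 on the opposite strand. The e398 libraries of tsp-15 held 99.3, 281 and 156 normalized counts, and those of tsp-21 held 375, 820 and 370.1, so that library 2 was the highest for both. Like tsp-3 and tsp-12, tsp-15 was lower in e398, and higher, under 2-fold, in u74. Summed neuron markers, 4 genes, ran at 8719 (wild type), 3902 (e398), 12449 (u74) and 18082 (u218), and 2 of 4 were lower at 2-fold in e398 and 2 of 4 higher in u218. Oocyte markers were also lower in e398 and higher in u74, as given above. Neither was tested for its part in these levels.

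By averages at 2-fold, 3 of the 9 members were higher and 4 lower in u74 than in e398, beside 27.8% and 37.2% of all genes. In u218 relative to e398 3 were higher and 3 lower, beside 26.9% and 40.7%, and in u218 relative to u74 2 were higher and 0 lower, beside 18.7% and 20.6%. For the 4 members whose reads could not be recovered in every mutant these differences carry no test. The u74 average relative to e398 stood at 2.30 on the log2 scale for tsp-12, -1.54 for tsp-14, 1.84 for tsp-15 and -0.82 for tsp-21. Relative to u74, u218 stood at -0.99 for tsp-12, 0.90 for tsp-14, -0.17 for tsp-15 and 1.55 for tsp-21.

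The comparisons between mutants did not enter the choice of the members and could be tested for the 5 genes whose reads were recovered in all mutant libraries, tsp-1 to tsp-5. The test was limma, with the prior variance following mean level, fitted to log2(normalized count + 1) and adjusted by Benjamini-Hochberg over all genes tested; its p-values measure the spread between these samples, which may be technical. The e398 size factors (0.476 to 0.685) were all below those of u74 (1.46 to 1.95) and u218 (0.831 to 1.99). In comparisons with e398, genotype therefore cannot be told apart from whatever else goes with size factor. Between u74 and e398, 4 of the 5 passed adjusted p under 0.05. tsp-1 fell by 3.77 ± 0.45 (SE, log2; limma adjusted p = 0.000381) and tsp-2 fell by 4.20 ± 0.41 (limma adjusted p = 0.00024) in u74 relative to e398. tsp-3 rose by 3.08 ± 0.54 (limma adjusted p = 0.00176). In that comparison 9.91% of 6052 genes were called higher and 46.1% lower, and the median gene tested stood at -1.45. Averages could be resolved up to 610 in e398 and only up to 128 in u74, which admits genes high in e398 alone. With 1 limit for both mutants the median was -0.99, and tsp-1 and tsp-2 were beyond it.

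tsp-5 fell by 1.15 ± 0.42 in u74 relative to e398 (limma adjusted p = 0.0440, 95% interval -2.10 to -0.19). The call was lost without e398 library 3 (adjusted p = 0.0862), without u74 library 1, 2 or 3 (adjusted p = 0.1206, 0.1002 and 0.1232) and with no filter on low values (0.0901), the adjusted p ranging from 0.0247 to 0.123 over all alternatives. With 1 limit of recovery for both mutants it passed (limma adjusted p = 0.0405). The median gene tested stood at -1.45, or at -0.99 with 1 limit. The fall of tsp-5 was thus near that of a typical gene tested, a set shaped by the limits of recovery. By averages tsp-5 stood at -1.18, where the median of all 17376 genes considered was -0.20. Of those genes 37.2% were lower at 2-fold or more, so a fall past 2-fold is not particular to tsp-5. tsp-4 differed by -0.83 ± 0.48 (limma adjusted p = 0.168), with a 95% interval from -1.91 to 0.26.

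In the comparison of u218 with e398, tsp-1 and tsp-2 passed and the other 3 did not. tsp-1 fell by 2.79 ± 0.50 (limma adjusted p = 0.0068) and tsp-2 fell by 2.87 ± 0.49 (limma adjusted p = 0.00614) in u218, where 6.51% of 6578 genes were called higher and 38.5% lower. tsp-3 differed by 1.74 ± 1.04 (limma adjusted p = 0.198), and by 2.84 without u218 library 3 (limma adjusted p = 0.0171, of a range from 0.0171 to 0.461). For tsp-4 the difference was -0.66 ± 0.55 (limma adjusted p = 0.345, 95% interval -1.93 to 0.62), and for tsp-5 -0.99 ± 0.56 (limma adjusted p = 0.181, 95% interval -2.30 to 0.33). Without u218 library 3 the differences were -3.11 for tsp-1, -3.22 for tsp-2, -0.87 for tsp-4 and -1.16 for tsp-5, on the same side of the threshold. Reads were resolved up to 610 in e398 and 157.8 in u218, so that tsp-1 and tsp-2, at e398 averages of 384 and 593, could be tested only because they were low in u218, and the same holds for u74. The median gene tested stood at -1.75. With 1 limit for both mutants these genes were not tested and 0 of the other 3 members were called, with 0 at an unadjusted p under 0.05. The data therefore do not set apart the levels of tsp-4 in any pair of mutants, although these intervals reach past 2-fold.

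Between u218 and u74, 0 of the 5 genes passed adjusted p under 0.05 by limma or by limma voom. By either, 1 had an unadjusted p under 0.05 (tsp-2). Of all 4571 genes tested by limma, 7.9% were called higher and 11.6% lower. tsp-2 differed by 1.33 ± 0.42 (limma adjusted p = 0.0624), and by 0.98 without u218 library 3 (limma adjusted p = 0.0241, of a range from 0.0241 to 0.178). For tsp-4 and tsp-5 the differences were 0.17 ± 0.40 and 0.16 ± 0.39 (limma adjusted p = 0.799 and 0.812). Their 95% intervals, -0.77 to 1.11 and -0.75 to 1.07, do not show the 2 mutants to be alike, but bound a difference to little over 2-fold.

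**Figure D5:**
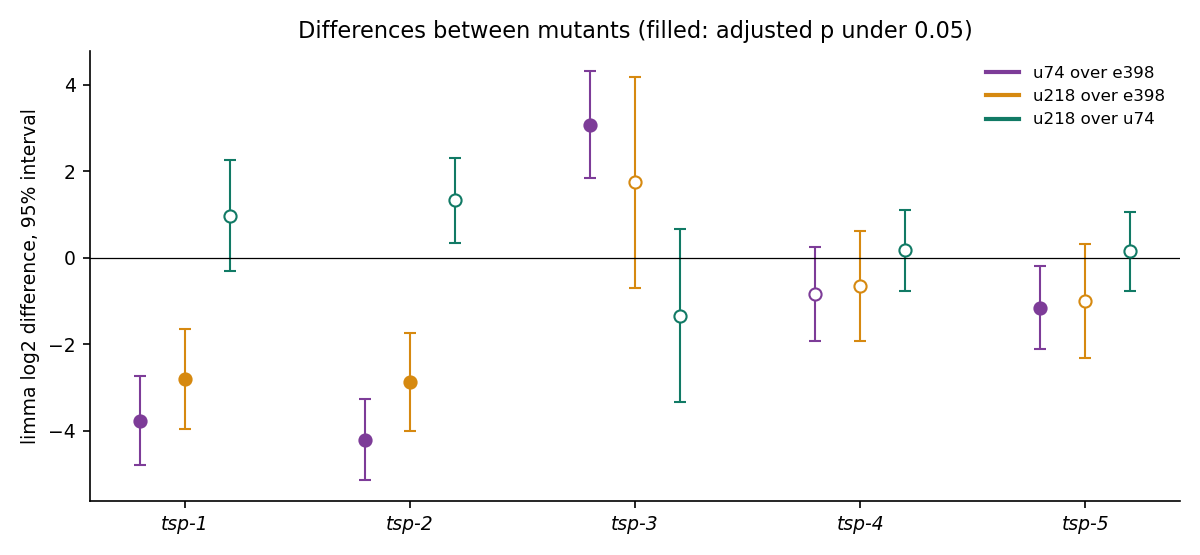
Limma log2 differences between mutants for tsp-1 to tsp-5 with 95% intervals, 3 libraries per mutant; filled points passed adjusted p under 0.05 and open points did not. tsp-1 and tsp-2 lie near -3 to -4 in u74 and u218 relative to e398, tsp-3 near 3 in u74 relative to e398, and tsp-4 and tsp-5 between -1.15 and 0.17.

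The other 12 tsp genes gave a background for the family. In e398 1 was higher at 2-fold and 1 lower, in u74 1 and 4, and in u218 2 and 4, with median log2 ratios of -0.01, -0.45 and 0.01. All genes considered had 11.4% higher and 19.9% lower in e398, 6.47% and 29.0% in u74, and 10.4% and 35.8% in u218. The counts of lower genes in u74 and u218 are near those shares and say nothing particular of the family. tsp-6, whose protein marks extracellular vesicles shed from sensory cilia, followed tsp-3: it averaged 56.6 (wild type), 6.63 (e398), 126 (u74) and 112 (u218). tsp-8, the most abundant per kb in wild type, averaged 28410, 35070, 1514 and 3757, and tsp-16 averaged 539, 762, 75.4 and 127, both lower in u74 and u218 as tsp-1 and tsp-2 were. tsp-18 averaged 746, 2089, 215 and 28.3. tsp-10 was higher in u218, at 1031.8 in wild type and 4546 in u218, and tsp-17, a gene that protects dopaminergic neurons, averaged 39.2 and 116. tsp-7 was lower in u74 (log2 ratio -1.49) and tsp-19 in u218 (-2.54), while tsp-9, tsp-11, tsp-13 and tsp-20 stayed within 2-fold of wild type in all mutants; after TMM scaling the count of higher genes in u218 was 5 rather than 2. Exons of tsp-7, tsp-8, tsp-9, tsp-10, tsp-13, tsp-16, tsp-17, tsp-18 and tsp-20 overlap those of other genes.

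Partners of the listed tetraspanins were read from lists of pathway genes. Of 13 Sma/Mab genes 0 were 2-fold higher or lower in e398, 0 higher and 3 lower in u74, and 0 higher and 1 lower in u218. Their median log2 ratios were -0.01, -0.44 and 0.08. Of all genes considered, 11.4% were higher and 19.9% lower in e398, 6.47% and 29.0% in u74, and 10.4% and 35.8% in u218. Beside these shares the counts show no change particular to the list. The Smad genes sma-2 (3037 wild type, 5780 e398, 525 u74 and 1158 u218) and sma-4 (3842, 5267, 1304 and 3079) had the lowest ratios in u74, -2.53 and -1.56. The receptor gene sma-6 had ratios of 0.21, -0.81 and 0.96, and the BMP modulator gene crm-1 -0.60, -0.16 and -0.10. The most abundant in wild type were the Schnurri gene sma-9 (8964) and the neogenin-like receptor gene unc-40 (7089), each within 2-fold in every mutant. After TMM scaling 3 of the 13 were higher and 0 lower in u218.

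Of 12 genes of Notch signalling and its proteases, 0 were higher and 3 lower in e398, 2 higher and 1 lower in u74, and 2 higher and 1 lower in u218. Their median log2 ratios were -0.32, 0.32 and -0.07. Counts in this paragraph stand beside 11.4% of all genes higher and 19.9% lower in e398, 6.47% and 29.0% in u74, and 10.4% and 35.8% in u218. For lists this short, no difference from these shares was tested. The ligand gene apx-1 averaged 1694 (wild type), 249.7 (e398), 4459 (u74) and 643 (u218), and the presenilin gene hop-1 averaged 540.2, 110, 1242 and 317. Both had the same sign of ratio as the oocyte markers given above in every mutant, and as tsp-12 in e398 and u74; in u218 the tsp-12 ratio of -0.09 turned to 0.18 after recentring and 0.35 after TMM scaling. The part of the oocyte markers in these levels was not tested. The receptor gene glp-1 had ratios of -0.76, 0.83 and -0.73, the ligand gene lag-2 -0.32, -0.10 and 2.25, and the protease gene sup-17 -0.33, 0.39 and -0.20. Of the 5 dual oxidase and peroxidase genes, 0 were higher and 1 lower in e398, 1 and 2 in u74, and 0 and 2 in u218 (medians -0.01, -0.41 and -0.87). The peroxidase gene skpo-1 averaged 1910 (wild type), 190 (e398), 4703 (u74) and 65.4 (u218), and the moulting peroxidase gene mlt-7 19418, 23231, 8437 and 5494. The log2 ratios were 0.03, -0.41 and -0.30 for the dual oxidase gene bli-3, -0.01, -1.24 and -0.87 for its paralog duox-2, and -0.81, 0.04 and -0.52 for doxa-1. After TMM scaling 3 Notch genes were higher and 0 lower in each of u74 and u218, and 0 dual oxidase and peroxidase genes were lower in u74. The 3 integrin genes pat-2, pat-3 and ina-1, whose products tetraspanins bind in other animals, ranged from -0.78 to 0.59 and were within 2-fold in every mutant, while after TMM scaling 1 was higher in u218.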

How the data were processed

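The authors deposited 1 table of averaged normalized counts, a signal per gene and genotype; division by library size factors and averaging were read from its name and values. Per the submitters' processing notes, HTSeq, bedtools, DESeq2 and DESeq were used; versions, aligner, build and annotation are not given. All 46926 identifiers matched the WBcel235 annotation, Ensembl release 115. The members, lists, comparisons and naming rule were chosen with earlier results of these data known. The naming rule took the members, other tsp genes at 20 normalized counts, per partner list the 2 most abundant in wild type and the 2 largest ratios per mutant, 3 neighbours per side, and the 5 genes most alike by each measure.

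Averages were compared as log2((average + 1)/(average + 1)) among genes at 20 or more in either column, called at 2-fold, with no test. Whole reads per library were recovered as whole multiples of the repeated steps of each column (3, or 6 in wild type), where fewer than 0.1 solutions would arise by chance. This reached averages of 9.75 (wild type), 610 (e398), 128 (u74) and 157.8 (u218), where 99.4%, 99.7%, 99.97% and 100% of values had exactly 1 solution; values moved off their place had one in 0.116%, 0.973%, 0.536% and 0.214% of cases. Genes resolved in both mutants of a pair, at a mean of 5 or more, were tested with limma 3.58.1 in R 4.3.3. Solutions and limma calls were tested on simulated data. Alternatives were other pseudocounts, filters, scalings, limma voom and leaving out each library.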

Additional observations from a re-analysis of the deposited data

How the results depend on the processing

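The ratios of tsp-4 and tsp-5 to wild type stayed above 2-fold under all alternatives, from 2.13 to 4.53 for tsp-4 and from 1.75 to 4.90 for tsp-5 (log2), the lowest with a pseudocount of 10. Since the pair was chosen for being higher in every mutant, that is a description and adds no support. TMM scaling gave 4 members higher in u74 rather than 2. No paired analysis was possible because the deposited columns are averages and carry no replicate numbers. The tsp-5 difference between u74 and e398 was -1.15 with no filter on low values, no longer past the threshold, and from -1.32 to -0.93 with 1 library left out. Between u218 and u74, leaving out 1 library gave -0.10 to 0.46 for tsp-4 and -0.0104 to 0.30 for tsp-5, neither past the threshold, and both negative without u218 library 3 (-0.04 and -0.0104).

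Counts over all genes called by limma moved with the genes admitted. With a mean of at least 20, u74 over e398 gave 367 higher and 1755 lower rather than 600 and 2789, u218 over e398 281 higher rather than 428, and u218 over u74 336 lower rather than 530; with no filter, u218 over u74 gave 161 higher rather than 361. With 1 limit of recovery for both mutants, 1834 were lower in u74 and 1572 in u218, relative to e398 (2789 and 2534 with separate limits). Leaving out 1 library gave 361 to 800 higher and 2372 to 2726 lower for u74 over e398, 132 to 470 and 1157 to 2707 for u218 over e398, and 36 to 1367 and 201 to 869 for u218 over u74, where the highest counts came without u218 library 3. The cause was not tested. Wild-type precision is limited by 32 tsp-4 and 11 tsp-5 reads.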

Other observations

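Among the other tsp genes, recovered reads showed uneven u218 libraries. For tsp-18 the u218 libraries held 1.51, 3.90 and 79.5 normalized counts, and for tsp-19 they held 7.04, 4.46 and 175, so that library 3 carried most of both signals. For tsp-16 the order was opposite, with 182, 181 and 16.9. The low averages of tsp-18 and tsp-19 in u218 are lower still in the other 2 libraries.

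tsp-6 and tsp-17 could be tested in all pairs of mutants. tsp-6 held from 4.21 to 9.86 normalized counts per e398 library, from 114 to 150 per u74 library and from 39.7 to 166 per u218 library. Relative to e398 it was higher in u74 (log2 4.12 ± 0.48, SE, limma adjusted p = 0.00034) and in u218 (3.73 ± 0.76, limma adjusted p = 0.00988). Of all genes tested, 9.91% were called higher in u74 and 6.51% in u218. In these comparisons genotype cannot be told apart from whatever else goes with size factor. tsp-17 held from 63.8 to 145 per u218 library and from 26.7 to 39.8 per u74 library. It was higher in u218 than in u74 (1.62 ± 0.42, limma adjusted p = 0.0369), where 7.9% of all genes tested were called higher. The tsp-17 call was lost with no filter on low values (limma adjusted p = 0.0529), without u74 library 1, 2 or 3 (0.0853, 0.104 and 0.1232) and without u218 library 1 or 2 (0.124 and 0.138), and stood without u218 library 3 (0.000333).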
